A study of Homo sapiens with 6 samples.

Results

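Plasma cells carry a set of surface proteins by which multiple myeloma is recognised in the clinic and against which antibodies, conjugates and engineered T cells are aimed. The 10 genes described here encode such proteins. They are CD38, SDC1 (CD138), TNFRSF17 (BCMA), TNFRSF13B (TACI), GPRC5D, FCRL5, NCAM1 (CD56), CD27, CD28 and CD47. They were found as the probe sets whose annotation names 1 of these genes and no other, which gave 29 of the 54613 probe sets on the array, or 10 of 19775 genes. No probe set names a member together with a second gene, and no filter on low values was applied, so that all 29 were tested.

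LP-1 is a human multiple myeloma cell line, and LP-1/Cfz is its derivative selected in the proteasome inhibitor carfilzomib. RNA was taken from 3 LP-1/Cfz samples, resistant to 12 nM carfilzomib and grown for 1 week without it, and from 3 samples of parental LP-1 cells that had never been selected. Each sample was hybridised to 1 Affymetrix array, and the labels give 4% serum in the medium of all cells, where the study's methods name a higher serum content. LP-1/Cfz is 1 resistant line from 1 parent, so that resistance and other changes during long culture cannot be told apart. The sources do not state whether the triplicates are separate cultures, and the p-values therefore rest on a spread between samples that may be technical.

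Most of these proteins are acquired or kept as B cells become plasma cells. CD38 is an ectoenzyme that consumes NAD, and syndecan-1, the product of SDC1, is a heparan sulfate proteoglycan that binds growth factors. BCMA and TACI are receptors for the survival ligands APRIL and BAFF, while CD27 and CD28 are receptors better known from T cells. NCAM1 is an adhesion molecule that many myeloma cells express, FCRL5 is a receptor of the Fc receptor-like family, GPRC5D is an orphan receptor, and CD47 restrains phagocytosis by macrophages.

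The deposited log2 values were centred for each probe set, and the baseline used is unknown. They show how arrays differ in a gene but not how strongly the gene is expressed, and the level of 1 gene cannot be set against that of another. In bulk RNA, fewer cells with a transcript and less of it per cell cannot be told apart. The direction of a difference follows from the sample columns. Array medians lay between 0.00302 and 0.0215. LP-1/Cfz replicate 3 stood apart, in that the interquartile range of its values was 0.338, where the other 5 arrays had 0.23 to 0.264. Where a call on a probe set of the 10 genes was lost without this array, the adjusted p without it is given.

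CD38 and NCAM1 had the largest changes of the 10 genes, and both fell in LP-1/Cfz cells, NCAM1 on 3 of its 7 probe sets. SDC1 rose on both of its probe sets, and smaller changes passed the test for TNFRSF17 and CD28 upward and for GPRC5D downward. TNFRSF13B, FCRL5, CD27 and CD47 did not pass. By limma with adjustment over all probe sets, 4 of the 29 probe sets rose, 5 fell and 20 did not pass at an adjusted p under 0.05, where 11% of all probe sets passed, 4.25% higher and 6.76% lower. At the gene level, where the probe sets of a gene are averaged, 3 of 10 genes rose and 3 fell, beside 16.7% of all genes called, 6.72% higher and 10% lower. The counts of each list and of neighbours given below are to be read beside these shares of all genes. The members' median log2 fold change was 0.08 and that over all genes 0.02. The 3 LP-1/Cfz values lay wholly above or below the 3 LP-1 values for 16 of the 29 probe sets, beside 30.7% of all probe sets, and for 7 of the 10 genes, beside 35.9% of all genes. A fold change of 1.7 or more was reached by 3 of the 29 probe sets (1.59% of all probe sets) and by 1 gene, CD38 (1.71% of all genes).

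**Figure D1:**
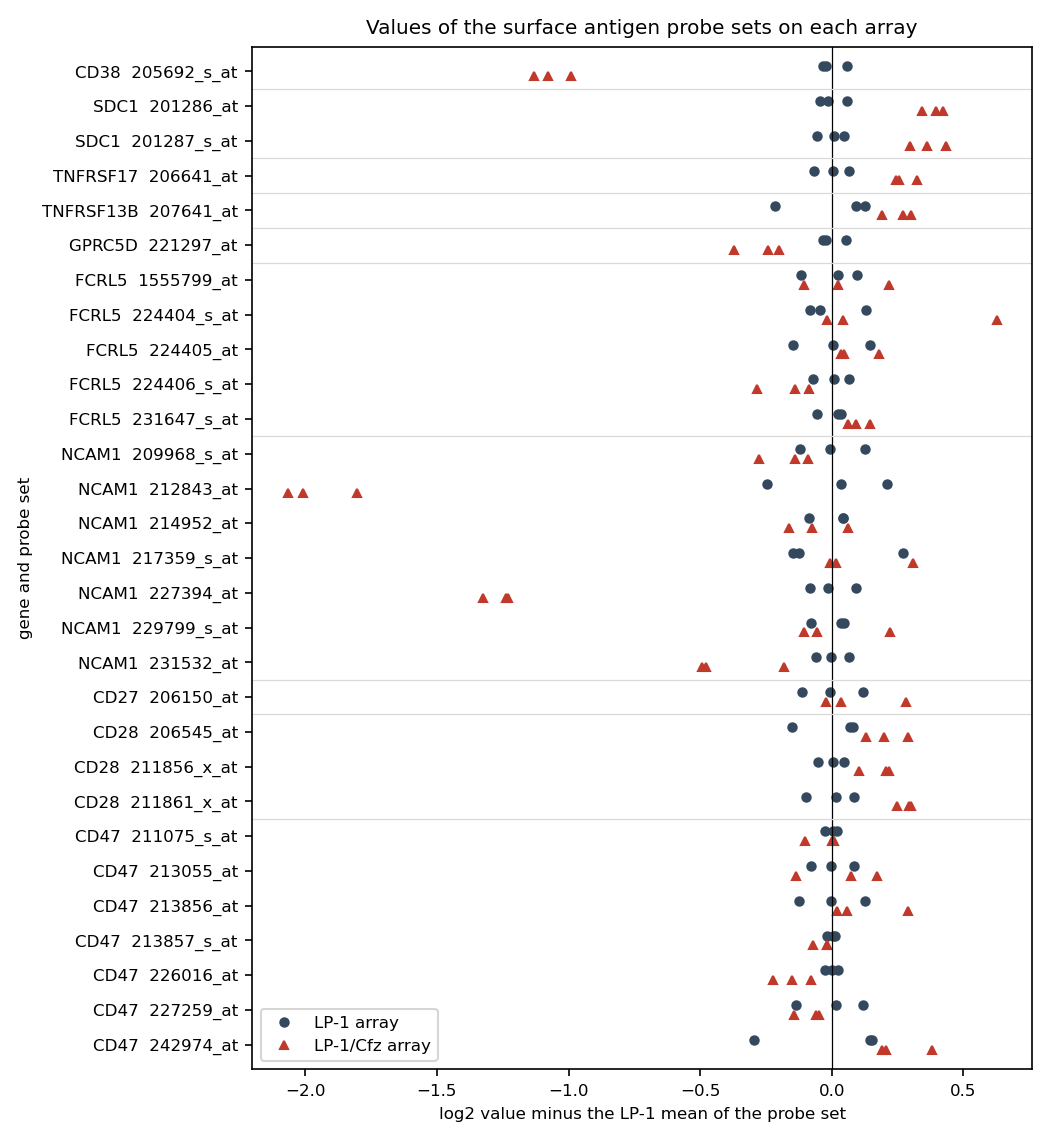
Values of the 29 surface antigen probe sets on each array. The horizontal axis gives log2 values relative to the mean of the LP-1 arrays, circles are the 3 LP-1 arrays, triangles the 3 LP-1/Cfz arrays. The LP-1/Cfz arrays lie far to the left for CD38 and for NCAM1 212843_at and 227394_at, to the right for SDC1, and among the LP-1 arrays for most probe sets of FCRL5 and CD47.

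Since the study concerns targets of Nrf2, the sequence before annotated starts of the genes was searched for the core of the antioxidant response element, TGACNNNGC, to which Nrf2 binds with small MAF proteins. RefSeq windows (GRCh38.p14) of the 250 bases before a start were at hand for 8 of the 10 genes, in 9 windows, of which SDC1 has 2. The CD28 window (chr2:203706389-203706638) runs past the first position of the gene, 203706482. The SDC1 window at chr2:20225131-20225380 lies inside the gene, which ends at 20225475. The element was in 1 of the 9, that of CD47, at position -118 on the minus strand of the window, and in 10.9% of all 34943 windows. The AP-1-like core TGANTCA was also in 1 of the 9, that of CD27, beside 6.59% of all windows. The interferon response core, GAAA, any 2 bases and GAAA (3.02% of all windows), and the cAMP response element TGACGTCA (1.63%) were in 0, the GC box GGGCGG in 5 (42.5%) and TATAAA in 1 (10.8%). All were searched on both strands, and matches of GGGCGG may overlap each other. The windows of CD38, which fell, of SDC1, which rose, and of CD47, which holds the element, are printed 5′ to 3′ along the gene, with matches of these motifs in capitals. The CD38 window (chr4:15778078-15778327, plus strand) has none, that of SDC1 (chr2:20225476-20225725, minus strand) a GC box, and that of CD47 (chr3:108091032-108091281, minus strand) several GC boxes and the reversed antioxidant element. A match is a run of letters and not a binding site.
CD38: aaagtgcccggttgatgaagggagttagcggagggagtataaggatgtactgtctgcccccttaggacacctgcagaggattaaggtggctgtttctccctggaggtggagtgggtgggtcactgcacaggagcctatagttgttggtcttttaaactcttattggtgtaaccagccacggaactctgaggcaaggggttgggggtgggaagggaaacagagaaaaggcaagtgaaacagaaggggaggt
SDC1: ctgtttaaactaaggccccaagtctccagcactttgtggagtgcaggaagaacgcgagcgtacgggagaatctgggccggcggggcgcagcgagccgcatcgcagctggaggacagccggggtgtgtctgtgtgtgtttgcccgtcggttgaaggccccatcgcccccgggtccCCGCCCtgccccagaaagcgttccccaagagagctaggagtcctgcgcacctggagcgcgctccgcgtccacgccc
CD47: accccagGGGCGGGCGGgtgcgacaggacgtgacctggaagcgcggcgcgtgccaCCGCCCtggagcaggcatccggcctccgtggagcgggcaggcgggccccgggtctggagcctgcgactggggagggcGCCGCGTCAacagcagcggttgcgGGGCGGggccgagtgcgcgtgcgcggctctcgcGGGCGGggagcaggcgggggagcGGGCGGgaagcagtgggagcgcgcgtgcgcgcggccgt

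CD38, the target of daratumumab, is read by 1 probe set, 205692_s_at, which is not among those marked as specific for 1 target. Its values were 1.64, 1.72 and 1.58 on the LP-1/Cfz arrays and 2.69, 2.68 and 2.77 on the LP-1 arrays. The groups were more than 0.9 apart at their nearest values, and the arrays within a group differed little. The means were 1.65 ± 0.0702 (SD, n = 3) for LP-1/Cfz and 2.71 ± 0.0493 (SD, n = 3) for LP-1. The signal was 2.09-fold lower in LP-1/Cfz, a log2 difference of -1.07 (standard error 0.0657, limma adjusted p = 6.35e-05). This change was larger in size than that of 99.2% of all probe sets. With each array left out in turn the call held in all 6 fits, at adjusted p values from 0.000245 to 0.000837.

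The gene of CD38 lies on chromosome 4 beside BST1, a paralogous NAD-consuming ectoenzyme, which had a log2 fold change of -0.17 (adjusted p = 0.197). Among the 20 measured genes nearest to CD38, 10 on each side, 1 rose and 0 fell by the gene-level fit in limma, and their median was 0.04. In the list of NAD turnover genes and the CD38 ligand, all 15 were measured, 2 rose and 2 fell, and the median was -0.03. PECAM1 (CD31), the adhesion molecule that CD38 binds, fell by 0.87 on the log2 scale (standard error 0.0598, adjusted p = 7.16e-05), and 4 of its 5 probe sets passed. NAMPT, the rate-limiting enzyme of NAD salvage, rose by 0.41 (adjusted p = 0.00251) on all 4 probe sets, and QPRT, which makes NAD from quinolinate, rose by 0.33 (adjusted p = 0.00496). SIRT1, an NAD-dependent deacetylase, fell by 0.43 on the log2 scale (adjusted p = 0.00749). QPRT passed on 1 of its 2 probe sets. The other listed enzymes of NAD synthesis, NMNAT1, NMNAT2, NMNAT3, NADSYN1 and NAPRT, had -0.20 to 0.17 and did not pass.

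NCAM1 is read by 7 probe sets, and they did not move alike. On 212843_at the values were -0.00, -0.21 and -0.27 in LP-1/Cfz and 1.84, 1.55 and 2.01 in LP-1. The LP-1/Cfz arrays were all below 0 and the LP-1 arrays all above 1.5. This was a 3.89-fold lower signal, or -1.96 on the log2 scale (standard error 0.124, limma adjusted p = 7.25e-05). On 227394_at the values were 0.01, -0.08 and 0.02 in LP-1/Cfz and 1.24, 1.17 and 1.34 in LP-1. Here too no LP-1/Cfz array came near the lowest LP-1 array. The difference was -1.26 on the log2 scale (standard error 0.0698, adjusted p = 3.71e-05). Both calls held in all 6 leave-one-out fits.

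Another NCAM1 probe set, 231532_at, had values of 0.10, -0.19 and -0.21 in LP-1/Cfz and 0.22, 0.35 and 0.28 in LP-1. The groups did not overlap, but the LP-1/Cfz arrays spread over a wider range than the LP-1 arrays. It differed by -0.38 on the log2 scale (standard error 0.0945, limma adjusted p = 0.0384), and among the leave-one-out fits the call held only without LP-1/Cfz replicate 1. The adjusted p was 0.0918 without LP-1/Cfz replicate 3. The other 4 NCAM1 probe sets, 209968_s_at, 214952_at, 217359_s_at and 229799_s_at, gave log2 fold changes from -0.17 to 0.11, with the groups overlapping on each. The 95% interval of 217359_s_at ran from -0.20 to 0.41 and that of 214952_at from -0.24 to 0.12, so that falls of the size seen on 212843_at lie outside them. Whether these probe sets read other transcripts of the gene or lie near background was not tested, since centred values hold no signal level.

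Averaged over its 7 probe sets, NCAM1 differed by -0.53 on the log2 scale (standard error 0.052, limma adjusted p = 0.000443). With the median of the probe sets in place of the mean this was -0.23 (adjusted p = 0.06). NCAM1 lies on chromosome 11, and of the 20 measured genes around it 0 rose and 0 fell by limma, with a median log2 fold change of 0.04. Of the 10 genes listed as its partners, all measured, 1 fell and 0 rose, and the median was 0.02. The 1 that fell was ST8SIA4, a polysialyltransferase that adds polysialic acid to NCAM1, by 1.10 on the log2 scale (standard error 0.0724, adjusted p = 5.55e-05), with 4 of its 5 probe sets past the threshold. The signal of 3 of the 7 NCAM1 probe sets and the mRNA of an enzyme which modifies the protein were thus lower in LP-1/Cfz.

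SDC1, whose product CD138 is the usual marker for isolating myeloma cells, rose on both probe sets. On 201286_at the values were -0.43, -0.40 and -0.48 in LP-1/Cfz and -0.77, -0.87 and -0.84 in LP-1. On 201287_s_at they were -0.16, -0.09 and -0.23 in LP-1/Cfz and -0.52, -0.58 and -0.48 in LP-1. On both probe sets every LP-1/Cfz array was above every LP-1 array. The log2 fold changes were 0.39 (standard error 0.0618, adjusted p = 0.00624) and 0.36 (standard error 0.0656, adjusted p = 0.0107) by limma, a 1.31-fold and a 1.29-fold higher signal. The first call held in all 6 leave-one-out fits. The second had an adjusted p of 0.05004 without LP-1 replicate 2 and was kept in the other 5. Neither call held when tested against a minimum fold change of 1.2.

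Syndecan-1 acts through its heparan sulfate chains, which are built and trimmed by a series of enzymes. Of 23 listed genes of chain synthesis, remodelling and shedding, 21 were measured, 5 rose and 1 fell by limma at the gene level, with a median log2 fold change of 0.06. Over all genes 6.72% were called higher and 10% lower. NDST1, which sulfates the nascent chain on nitrogen, rose by 0.50 (standard error 0.0498, adjusted p = 0.00049) on all 3 probe sets. SULF2, an extracellular sulfatase that trims the finished chain, rose by 0.40 (adjusted p = 0.00115), GLCE, the epimerase, by 0.35 (adjusted p = 0.00698) and HS2ST1, a sulfotransferase, by 0.34 (adjusted p = 0.0136). EXTL2, a glycosyltransferase, rose by 0.22 (adjusted p = 0.0209), but its 1 probe set did not pass over all probe sets (limma adjusted p = 0.0565). XYLT1, which starts the chain, fell by 0.36 on the log2 scale (adjusted p = 0.0184), but its sign was not the same on all probe sets, with 0.31 (adjusted p = 0.183) on the probe set marked as specific for it and -1.02 on the other. The calls of HS2ST1, EXTL2 and XYLT1 were lost in 2, 5 and 3 of 6 leave-one-out fits, that of HS2ST1 without LP-1 replicate 1 or 3. Heparanase (HPSE), which cleaves the chains, had -0.02 (adjusted p = 0.915), and the sheddase ADAM17 had 0.02 (adjusted p = 0.857). SDC1 itself lies on chromosome 2, where 3 of the 20 genes around it rose and 0 fell.

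**Figure D2:**
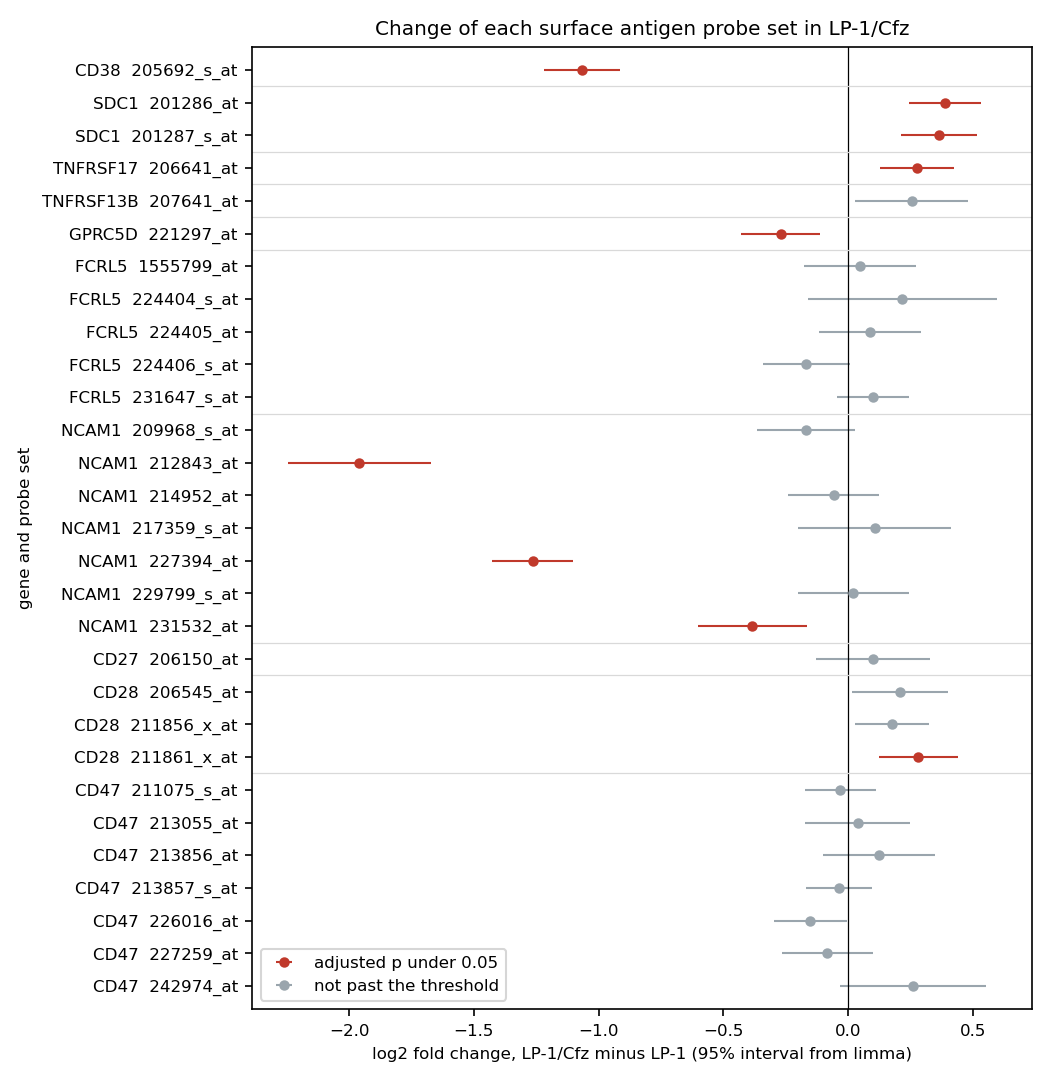
Log2 fold change of each surface antigen probe set, LP-1/Cfz minus LP-1. Points are estimates and bars 95% intervals from limma, coloured where the adjusted p is under 0.05. The 9 coloured probe sets belong to CD38, SDC1, TNFRSF17, GPRC5D, NCAM1 and CD28, and all 12 intervals of FCRL5 and CD47 lie within 0.6 of 0.

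The 2 receptors of APRIL and BAFF were both read by a single probe set. For TNFRSF17, which encodes BCMA, the values were 0.62, 0.54 and 0.55 in LP-1/Cfz and 0.36, 0.23 and 0.30 in LP-1, with no overlap. The difference was 0.27 on the log2 scale (standard error 0.0643, limma adjusted p = 0.032), a 1.21-fold higher signal. Among the 6 leave-one-out fits the call held only without LP-1/Cfz replicate 3 (adjusted p = 0.0492), and the others reached 0.115. For TNFRSF13B, which encodes TACI, the values were 0.64, 0.61 and 0.53 in LP-1/Cfz and 0.43, 0.12 and 0.46 in LP-1. LP-1 replicate 2 was far below the other LP-1 arrays, and the groups did not overlap. The log2 fold change of 0.25 (95% interval 0.03 to 0.48) had an adjusted p of 0.158 by limma and did not pass.

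Around these receptors, 17 of 20 listed ligands, adaptors and processing enzymes were measured, of which 1 rose and 3 fell, with a median log2 fold change of 0.02. The mRNAs of the ligands did not pass, with 0.13 for TNFSF13 (APRIL, adjusted p = 0.207) and 0.10 for TNFSF13B (BAFF, adjusted p = 0.416), and the BAFF receptor TNFRSF13C had 0.15 (adjusted p = 0.181). RELB and NFKB2, the transcription factor subunits of the noncanonical NF-kB pathway, fell by 0.87 and by 0.32 on the log2 scale (adjusted p = 0.000304 and 0.00674 by limma). NFKB2 passed on 1 of its 3 probe sets. APH1B, a subunit of gamma-secretase, the protease complex that sheds BCMA from the cell surface, fell by 0.62 on the log2 scale (adjusted p = 0.000428) on both probe sets. The other measured subunits did not pass. APH1A had 0.07 (adjusted p = 0.463), PSEN2 0.18 (adjusted p = 0.0857), NCSTN 0.09 (adjusted p = 0.404) and PSENEN -0.03 (adjusted p = 0.751). TRAF1, an adaptor of these receptors, rose by 0.23 (adjusted p = 0.0322), a call lost in 4 of 6 leave-one-out fits.

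GPRC5D, the target of talquetamab, had values of -0.08, -0.13 and -0.25 in LP-1/Cfz and 0.08, 0.10 and 0.17 in LP-1 on its only probe set. All LP-1/Cfz arrays were below all LP-1 arrays, with replicate 3 the lowest. The difference was -0.27 on the log2 scale (standard error 0.0691, limma adjusted p = 0.0438), a 1.21-fold lower signal. The call was lost in each of 6 leave-one-out fits, with adjusted p values from 0.0634 to 0.16, and was 0.0784 without LP-1/Cfz replicate 3. At the gene level the adjusted p was 0.0195, and it was lost without any 1 of the 3 LP-1 arrays.

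GPRC5D lies on chromosome 12. Of the 20 measured genes around it, 5 rose and 1 fell by limma, with a median log2 fold change of 0.15 beside 0.02 over all genes. The gene next to it, HEBP1, a haem-binding protein, rose by 0.61 (adjusted p = 0.000568), while GPRC5D-AS1 on the other side had 0.15 (adjusted p = 0.376). GPRC5A, a relative of GPRC5D that lies 2 genes away, had 0.17 (adjusted p = 0.244), and the cell cycle inhibitor CDKN1B, 4 genes away, had 0.51 (adjusted p = 0.000823). Over all 10 members 200 neighbours were counted, of which 18 rose and 8 fell, with a median of 0.04. Of all 19775 genes 1328 (6.72%) rose and 1984 (10%) fell. The medians for the other members lay between -0.03 (TNFRSF17) and 0.06 (FCRL5). For CD38, NCAM1, GPRC5D and TNFRSF17 the median of the neighbours had the opposite sign to the member. One immediate neighbour of CD47, the noncoding RNA gene LINC01215, fell by 2.50 on the log2 scale (adjusted p = 1.25e-05), where CD47 itself had 0.02.

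**Figure D3:**
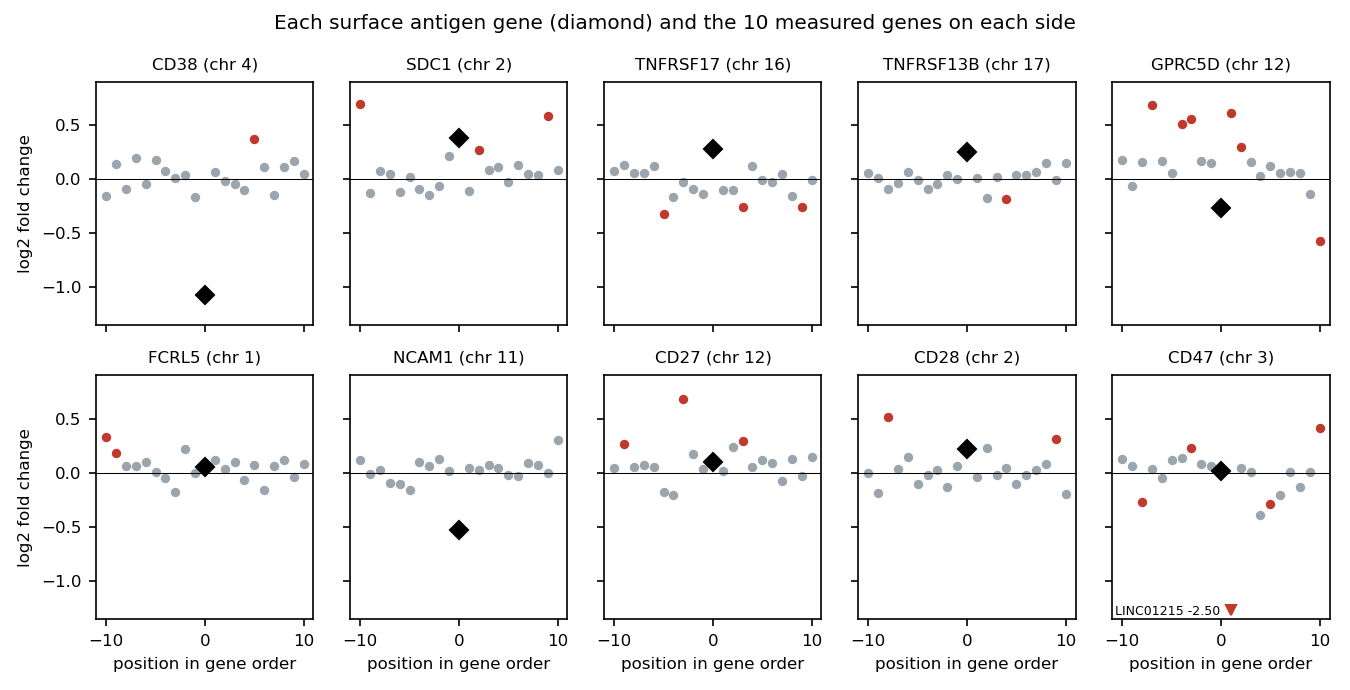
Log2 fold change (vertical axis) of each surface antigen gene, drawn as a diamond, and of the 10 measured genes on each side, by position in gene order on the chromosome. Red points have an adjusted p under 0.05, and the triangle marks LINC01215, whose value of -2.50 lies below the axis. The diamonds of CD38 and NCAM1 lie below all of their neighbours, and that of GPRC5D below 19 of 20.

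FCRL5, the target of the antibody cevostamab, is read by 5 probe sets, of which 0 passed. Their log2 fold changes ran from -0.17 to 0.22, with adjusted p values by limma from 0.219 to 0.823. On 224404_s_at the values were 0.07, 0.01 and 0.65 in LP-1/Cfz and -0.05, -0.02 and 0.16 in LP-1. The highest value was that of LP-1/Cfz replicate 3, the array that stood apart, and the other 2 LP-1/Cfz arrays lay among the LP-1 arrays. Without that array the probe set had 0.01 (limma adjusted p = 0.949). The gene had 0.06 (95% interval -0.11 to 0.22). Among 12 of 13 listed relatives and partners of FCRL5 and GPRC5D that were measured, 1 rose and 0 fell, with a median of 0.03. The 1 was GPRC5B, a relative of GPRC5D, by 0.41 (adjusted p = 0.00254), with 3 of its 4 probe sets past the threshold. FCRL4, which lies next to FCRL5, had 0.11 (adjusted p = 0.253).

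CD28, a costimulatory receptor that myeloma cells can express, had negative values on all 6 arrays for each of its 3 probe sets. On 211861_x_at they were -1.151, -1.142 and -1.196 in LP-1/Cfz and -1.43, -1.54 and -1.36 in LP-1. On 206545_at they were -1.26, -1.10 and -1.19 against -1.32, -1.31 and -1.54, and on 211856_x_at -0.99, -0.98 and -1.09 against -1.15, -1.25 and -1.19. LP-1/Cfz was above LP-1 on each probe set with no overlap, although the gap between the nearest arrays was small. Only 211861_x_at passed, with a difference of 0.28 (standard error 0.0683, limma adjusted p = 0.0368), and this was lost in each of 6 leave-one-out fits (adjusted p = 0.0523 without LP-1/Cfz replicate 3, and up to 0.12). The other 2 had 0.21 (adjusted p = 0.179) and 0.18 (adjusted p = 0.14). The gene had 0.22 (adjusted p = 0.0209), a call that held only without LP-1/Cfz replicate 3 or without LP-1 replicate 1 among such fits, and 0.43 (adjusted p = 0.00081) with the arrays quantile normalized again. The ending _x_at marks probe sets that can share probes with other transcripts, and on 206545_at alone, with only probe sets marked as specific for 1 target, the gene had an adjusted p of 0.146.

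CD27, a receptor that normal plasma cells carry and myeloma cells often lose, had values of 0.01, 0.07 and 0.32 in LP-1/Cfz and 0.15, 0.03 and -0.08 in LP-1. The groups overlapped, with LP-1/Cfz replicate 3 the highest array. The log2 fold change was 0.10 (95% interval -0.13 to 0.33, adjusted p = 0.603 by limma). Of 14 genes listed with CD27 and CD28 (ligands, related receptors and signalling genes), 12 were measured, 1 rose and 3 fell, with a median of -0.07. CD70, the ligand of CD27, rose by 0.41 (adjusted p = 0.001), while the CD28 ligands CD80 and CD86 had -0.03 (adjusted p = 0.865) and 0.13 (adjusted p = 0.248). The kinase subunits PIK3CG and PIK3R1 fell by 0.66 and by 0.24 on the log2 scale (adjusted p = 0.000917 and 0.017), and the exchange factor VAV1 fell by 0.18 on the log2 scale (adjusted p = 0.0498). The call of PIK3R1 was lost without LP-1 replicate 2 or 3 and that of VAV1 in each of 6 leave-one-out fits. The 1 probe set of VAV1 did not pass over all probe sets (limma adjusted p = 0.115).

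CD47 is read by 7 probe sets, of which 0 passed. Their log2 fold changes lay between -0.15 and 0.26, the lowest adjusted p by limma was 0.194, and 5 of them overlapped between the groups. On 213857_s_at the values were -1.146, -1.143 and -1.198 in LP-1/Cfz and -1.12, -1.113 and -1.145 in LP-1, so that the groups overlapped. This was the tightest of the 7, with a 95% interval of -0.17 to 0.10. The gene had 0.02 (95% interval -0.10 to 0.14). With the arrays quantile normalized again it had 0.16 (limma adjusted p = 0.0526), outside that interval, 242974_at had 0.49 (adjusted p = 0.0536), and the sign of 211075_s_at, 213857_s_at and 226016_at turned from negative to positive, so that the interval holds for the deposited scaling only. All 12 listed partners were measured, of which 1 rose and 0 fell, with a median of 0.02. The macrophage receptor SIRPA had -0.05 (adjusted p = 0.61), QPCTL, the enzyme that modifies the SIRPA-binding end of CD47, had -0.13 (adjusted p = 0.395), and calreticulin (CALR) had -0.12 (adjusted p = 0.171). LRP1, the receptor for calreticulin, rose by 0.21 (adjusted p = 0.0342), a call lost in each of 6 leave-one-out fits. None of its 4 probe sets passed by limma, at adjusted p values from 0.123 to 0.278.

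Beside the 10 genes, 24 other surface antigens of myeloma cells had been listed, of which 22 were measured. Of these, 1 rose and 11 fell by limma, where 6.72% of all genes were called higher and 10% lower. Their median log2 fold change was -0.18, beside 0.08 for the 10 members and 0.02 over all genes. Both sets were chosen with earlier results of these data known, so that the contrast between them is a description only. SLAMF7, the target of elotuzumab, fell by 2.17 on the log2 scale (standard error 0.064, adjusted p = 9.55e-07) on all 3 probe sets. CD74, the invariant chain of MHC class II, fell by 1.96, CD44, a receptor for hyaluronan, by 1.49, CD48, a ligand of SLAM family receptors, by 1.41 and the adhesion molecule ICAM1 by 1.06 on the log2 scale, with adjusted p values from 8.3e-07 to 8.63e-05. Each of these 5 calls held in all 6 leave-one-out fits. The probe sets of ICAM1 had -0.93 to -1.25, those of CD48 -2.29 and -0.53, and those of CD74 -3.13, -2.84 and 0.10, the last not called. CD44 passed on 8 of its 13 probe sets, which ran from -4.42 to 0.31, and the value of the gene ran from -4.42 to -1.08 over the settings tried. IL6R, the receptor of interleukin-6, rose by 0.46 (adjusted p = 0.000676) on all 3 probe sets. Of the complement regulators, which protect cells from antibody-mediated lysis, 6 of 7 were measured, 0 rose and 1 fell. CD46 fell by 0.21 on the log2 scale (adjusted p = 0.0256, lost in 4 of 6 leave-one-out fits), but none of its 3 probe sets passed. CD55 and CD59 had -0.19 (adjusted p = 0.12) and -0.02 (adjusted p = 0.802).

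**Figure D4:**
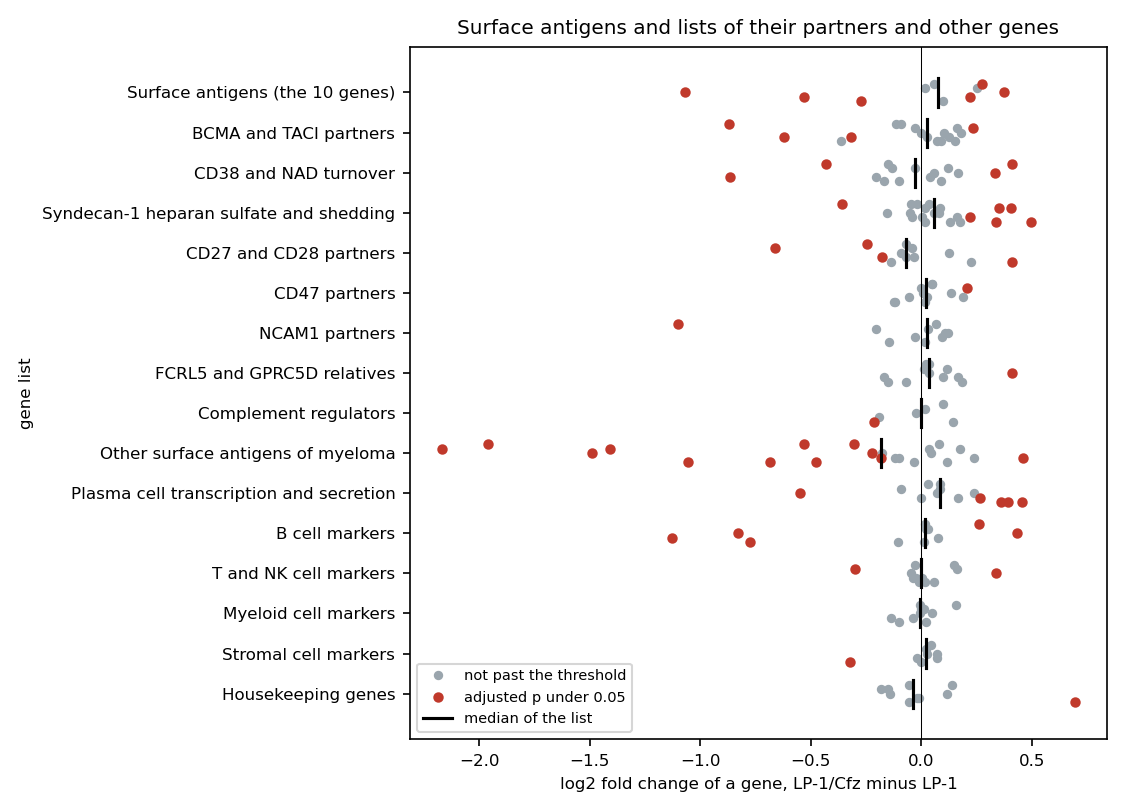
Log2 fold change at the gene level, LP-1/Cfz minus LP-1 (horizontal axis), of the 10 surface antigen genes and of the genes in each list. Each point is a gene, red where the adjusted p is under 0.05, and black lines are list medians. The genes and lists were chosen with earlier results of these data known. The other surface antigens hold 11 of their 12 red points on the negative side, down to -2.17, while the 10 genes have 3 on each side.

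The identity of the cells was described by marker lists, chosen like the others with earlier results of these data known. Of 14 listed genes of plasma cell transcription and secretion, 13 were measured, 4 rose and 1 fell, with a median log2 fold change of 0.08. The share called was 38.5% in this list, beside 16.7% of all genes. It was 45.5% for the B cell, 16.7% for the T and NK cell and 12.5% for the stromal markers. The transcription factors IRF4, PRDM1 and XBP1 had -0.09 (adjusted p = 0.298), 0.08 (adjusted p = 0.313) and 0.07 (adjusted p = 0.528). By the same limma fit POU2AF1 had 0.24 (adjusted p = 0.0916) and JCHAIN 0.08 (adjusted p = 0.541). SSR4 and MZB1, proteins of the endoplasmic reticulum, rose by 0.45 and 0.39 (adjusted p = 0.000628 and 0.00182), CREB3L2 and the kinase PIM2 by 0.36 and 0.26 (adjusted p = 0.00426 and 0.00657), and FKBP11, a folding enzyme, fell by 0.55 on the log2 scale (adjusted p = 0.000226). All 11 B cell markers were measured, of which 2 passed upward (CR2 and CD79A) and 3 fell, CIITA by 1.13, BLK by 0.83 and BACH2 by 0.77 on the log2 scale. Among the leave-one-out fits the call of CD79A held only without LP-1/Cfz replicate 1, and that of CR2 was lost with only probe sets marked as specific for 1 target. Of 12 T and NK cell markers 1 passed upward (CD8A, 0.34) and 1 downward (GNLY, -0.30), but the call of CD8A held in 1 of 6 leave-one-out fits, without LP-1/Cfz replicate 2, that of GNLY in 4, and neither gene passed on a single probe set. Of 10 myeloid markers 0 rose and 0 fell, of 8 stromal markers 0 and 1 (ACTA2, by 0.32 on the log2 scale, lost without LP-1 replicate 1), and of 10 measured housekeeping genes 1 (PGK1, 0.70) and 0. The mean centred value of the T and NK markers ran from -0.06 to 0.08 on LP-1/Cfz and from -0.03 to -0.01 on LP-1 arrays, that of the myeloid markers from -0.05 to 0.10 and from 0.01 to 0.07, and that of the stromal markers from -0.15 to -0.06 and from -0.11 to -0.08. Whether any of these markers is present cannot be read from centred values, and their part in the results was not tested.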

How the data were processed

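Total RNA of 3 LP-1/Cfz and 3 LP-1 samples was hybridised to Affymetrix U133 Plus 2.0 arrays, 1 array each. The authors deposited 1 column of log2 values per array, covering 54613 probe sets. RMA is the method named in the submitters' processing notes (version not given in the sources used here). Each probe set is centred on an unknown baseline, which removes level and signal over background, and a filter on dim probes was therefore not run. The platform annotation names 1 gene for 41091 probe sets, several for 1801 and none for 11721. The identifiers of 41037 matched RefSeq, and 0 symbols were updated.

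Groups were compared by limma 3.58.1 in R 4.3.3 (lmFit and eBayes, no covariate, two-sided). P-values were adjusted by Benjamini-Hochberg over all probe sets and, for the mean of the single-gene probe sets of a gene, over 19775 genes. A call is an adjusted p under 0.05. Intervals are 95% intervals of the same fit. The number of arrays limits the precision: an exact permutation test of 3 against 3 cannot go below 0.1. The fits were tested on simulated data. Alternatives were other scalings, array weights, a robust prior, the replicate number as a block, minimum fold changes, other rules for genes with several probe sets and leaving out each array in turn.

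The members and the 15 other lists were chosen with earlier results of these data known. The text names all members, up to 5 called genes in each direction of a list, the called genes next to a member, and the 3 genes whose values over the 6 arrays were nearest to those of the most raised and the most lowered member. Other listed genes and neighbours were named after their values were seen. Neighbours were taken in RefSeq order (GRCh38.p14), 10 measured genes on each side. Figures were drawn with matplotlib 3.10.9.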

Additional observations from a re-analysis of the deposited data

How the results depend on the processing

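The 10 genes and their 29 probe sets kept the sign of every called value under all alternatives. CD38 and the NCAM1 probe sets 212843_at and 227394_at were called under each alternative test that included them. Each call of a member gene or probe set with a log2 fold change under 0.4 in size was lost under at least 1 alternative. For SDC1 this was the limma test against a minimum fold change of 1.2 (adjusted p = 0.735 for 201286_at and 0.56 for the gene). CD38 dropped out of the fit with only probe sets marked as specific for 1 target, in which 9 members were measured. Against a minimum fold change of 1.2, 3 of the 29 probe sets and 2 of the 10 genes passed (1312 probe sets, 624 genes and 18 listed genes over the whole table), and 3 and 1 (867, 339 and 11) had a fold change of 1.7 or more. With 1 array left out, 4 to 6 of the 29 probe sets and 3 to 6 of the 10 genes passed, of 3395 to 5355 probe sets and 2080 to 3183 genes in all, and 36 to 49 listed genes in place of 48. The fewest were called without an LP-1 array: 3453, 3530 and 3395 probe sets without LP-1 replicate 1, 2 and 3, and for the 29 probe sets 5, 4 and 5, beside 5 without LP-1/Cfz replicate 2. With the replicate number as a block, 5 of the 29 probe sets and 4 of the 10 genes were called. In all, 4544 probe sets and 2641 genes were called with this block, beside 6014 and 3312 without it. At the gene level the calls of GPRC5D (adjusted p = 0.0519) and CD28 (0.0577) were lost. Deviations of samples with the same number had correlations from -0.0487 to 0.126, and those with different numbers from -0.118 to 0.129. Whether samples with the same number shared a batch or a culture cannot be told from such values. With only probe sets marked as specific for 1 target, 2151 genes passed, and XYLT1 had 0.31 in place of -0.36. The cause of these changes was not tested, and some of these fits used fewer arrays or probe sets. The median over all neighbours was 0.0271 in place of 0.0404 with 5 genes on each side.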

Other observations

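Over the 6 arrays, the genes whose centred values lay nearest to those of CD38 were KDM2B, a histone demethylase, PINX1, an inhibitor of telomerase, and PARP12, a mono-ADP-ribosyltransferase. Their log2 fold changes were -1.03, -1.03 and -1.01 beside -1.07 for CD38, and the root mean square distance was 0.0384, 0.0386 and 0.0397 on the log2 scale. For SDC1, the member that rose most, the nearest were STK26, a kinase (0.35), HDAC8, a histone deacetylase (0.40), and NECTIN2, an adhesion molecule (0.37), at distances of 0.0165, 0.017 and 0.0187. The 3 genes nearest to CD38 are read by 1 probe set each, and STK26, HDAC8 and NECTIN2 by 2, 3 and 4. With 6 arrays in 2 groups such likeness mostly repeats the difference between the groups.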
